A study of Saccharomyces cerevisiae with 12 samples.

Results

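Besides the tRNA genes, RNA polymerase III (RNAPIII) transcribes a handful of other short noncoding genes in budding yeast, and 9 annotated genes of this kind were examined for SUMO peaks: SNR6, SNR52, RPR1, SCR1, ZOD1, RNA170 and the 5S rRNA copies RDN5-4, RDN5-5 and RDN5-6. They were taken by name, whatever their signal, from the 6431 annotated nuclear genes, and a peak was assigned to a gene when its summit lay within 250 bp of the annotated gene. The data are ChIP-seq peak lists from immunoprecipitation of Smt3, as SUMO is named in yeast. Cultures were kept at 30 °C in synthetic complete medium and taken in mid-log growth, with 2 replicates in each group. WT untreated was strain W303a without further treatment. The ubc9-6 untreated group was a strain of the W303 background whose UBC9 locus holds the ubc9-1 allele repeated in tandem, which lowers the activity of the SUMO-conjugating enzyme Ubc9. WT heat shock was W303a shifted for 12 min to 37 °C. The 6 immunoprecipitates each had a peak list, and the 6 inputs had served as controls in the peak calling. The study describes the untreated replicates of both strains as independent preparations from cultures. Nothing in the sources used here says so for heat shock, where the spread between replicates may be technical.

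The lists for WT untreated held 714 and 842 peaks, the ubc9-6-labelled lists held 600 and 709, and the heat-shock-labelled lists held 302 and 319. A check on heat-shock genes went against the labels of the last 2 groups. Of 20 such genes, 4 and 2 had a summit near the start codon in the WT untreated lists, 11 and 12 in the ubc9-6-labelled lists, and 0 and 0 in the heat-shock-labelled pair. Of 387 merged regions with a peak in both WT untreated lists, at neither a tRNA gene nor one of the 9 genes, the ubc9-6-labelled lists kept 278 in both and the heat-shock-labelled lists kept 12. Of 264 such regions at tRNA genes they kept 259 and 247. The names that the sample descriptions give the lists also sit oddly with these labels. One letter is shared by WT untreated and the ubc9-6-labelled lists, another by WT untreated and the heat-shock-labelled lists, and if the former stands for the strain and the latter for the treatment, both groups carry each other's names. What the letters stand for is not stated. The labels of these 2 groups may therefore be exchanged, and every direction below holds for the lists as labelled. The background over the genome, recovered from the peak scores, was close in all 6, from 114 to 140 fragments at a base. Replicate 1 labelled heat shock also held 24 mitochondrial peaks, where the other lists held 0.

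SUMO is a small protein that Ubc9 joins to lysines of other proteins, and subunits of RNAPIII are among its known targets in yeast. At a tRNA gene, the factor TFIIIC binds an A box and a B box inside the gene and places TFIIIB upstream of the start, and TFIIIB recruits RNAPIII. The genes studied here depart from that layout. SNR6, which encodes the U6 RNA of the spliceosome, has a TATA element upstream and a B box beyond its end. SNR52, a C/D box snoRNA that guides methylation of rRNA, and RPR1, the RNA of RNase P, are made with a 5′ leader that holds their promoter boxes and is later removed. SCR1 is the RNA of the signal recognition particle, with promoter boxes inside the gene and a TATA element upstream. ZOD1 is a relic of a tRNA gene, and RNA170 is a short transcript of unknown function that contains the TFIIIC-bound site ETC5. The 5S genes lack a B box and need TFIIIA in addition.

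The sequences below, read from R64 (the sacCer3 assembly) on the strand of each gene, have parts of these layouts marked. Not every promoter box is marked, and the stretch past the end of SNR6 lies away from the summit. SNR6 (chrXII:366175-366294, plus strand) and SCR1 (chrV:441927-442026, plus strand) are shown around their annotated starts, with the TATAAA element in capitals.
SNR6: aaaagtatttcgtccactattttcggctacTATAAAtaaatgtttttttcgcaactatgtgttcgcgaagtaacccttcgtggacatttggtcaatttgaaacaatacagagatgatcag
SCR1: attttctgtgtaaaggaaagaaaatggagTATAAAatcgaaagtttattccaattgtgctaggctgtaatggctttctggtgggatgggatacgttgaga
The stretch past the end of SNR6 (chrXII:366439-366504) and the stretch upstream of SNR52 (chrV:431221-431390, minus strand) have in capitals the letters GTTCGA, the core of the B box.
SNR6 downstream: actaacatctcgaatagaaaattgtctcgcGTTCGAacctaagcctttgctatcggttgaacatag
SNR52 upstream: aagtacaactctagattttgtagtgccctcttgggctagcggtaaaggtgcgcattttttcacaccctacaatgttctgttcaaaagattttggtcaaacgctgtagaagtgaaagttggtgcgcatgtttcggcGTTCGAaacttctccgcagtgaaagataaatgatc
The stretch upstream of RPR1 (chrV:118036-118185, minus strand) has in capitals its closest B box match, on the opposite strand with 2 mismatches. A match as close also lies inside the gene, on its own strand. Whether the marked letters are a promoter box of RPR1 was not tested. ZOD1 (chrXIII:91940-92069, plus strand) and the whole of RNA170 (chrXIII:667288-667456, minus strand) have in capitals a B box with 1 mismatch.
RPR1 upstream: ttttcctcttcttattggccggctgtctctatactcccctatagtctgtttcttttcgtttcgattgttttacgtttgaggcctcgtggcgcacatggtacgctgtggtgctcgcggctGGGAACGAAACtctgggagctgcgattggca
ZOD1: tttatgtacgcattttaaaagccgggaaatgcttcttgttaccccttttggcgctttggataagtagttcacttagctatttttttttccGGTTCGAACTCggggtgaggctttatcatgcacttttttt
RNA170: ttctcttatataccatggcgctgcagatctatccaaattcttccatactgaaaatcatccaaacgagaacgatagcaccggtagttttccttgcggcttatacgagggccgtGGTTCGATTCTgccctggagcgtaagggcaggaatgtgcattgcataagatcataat
RDN5-5 (chrXII:485697-485815, plus strand) follows RDN5-1 (chrXII:459676-459796), the 5S gene of the rDNA array, with the bases that differ in an alignment in capitals.
RDN5-1: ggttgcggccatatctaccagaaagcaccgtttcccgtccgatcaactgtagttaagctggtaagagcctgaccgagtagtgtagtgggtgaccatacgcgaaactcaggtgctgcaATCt
RDN5-5: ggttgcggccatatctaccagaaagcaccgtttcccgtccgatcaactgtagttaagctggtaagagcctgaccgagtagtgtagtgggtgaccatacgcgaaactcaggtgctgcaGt

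In WT untreated cells, 8 of the 9 genes had a SUMO peak in both replicates, and all 9 had one in replicate 1. Among all nuclear genes, 10.1% had a peak in both. The 9 genes were chosen with earlier results known, so this contrast is a description and not free of that choice. The nuclear tRNA genes stood at 268 of 275 and the other snRNA and snoRNA genes at 45 of 80. The exception was SCR1 in replicate 2, described below. Fold enrichment, the fragments at the summit over the local background as written by the peak caller, ranged from 1.75 at RNA170 to 38.2 at SNR52. Within a list, the standing of a gene is given below as the percent of tRNA gene peaks with a lower fold. The median tRNA gene peak was 8.26-fold in replicate 1 and 11.4-fold in replicate 2.

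**Figure D1:**
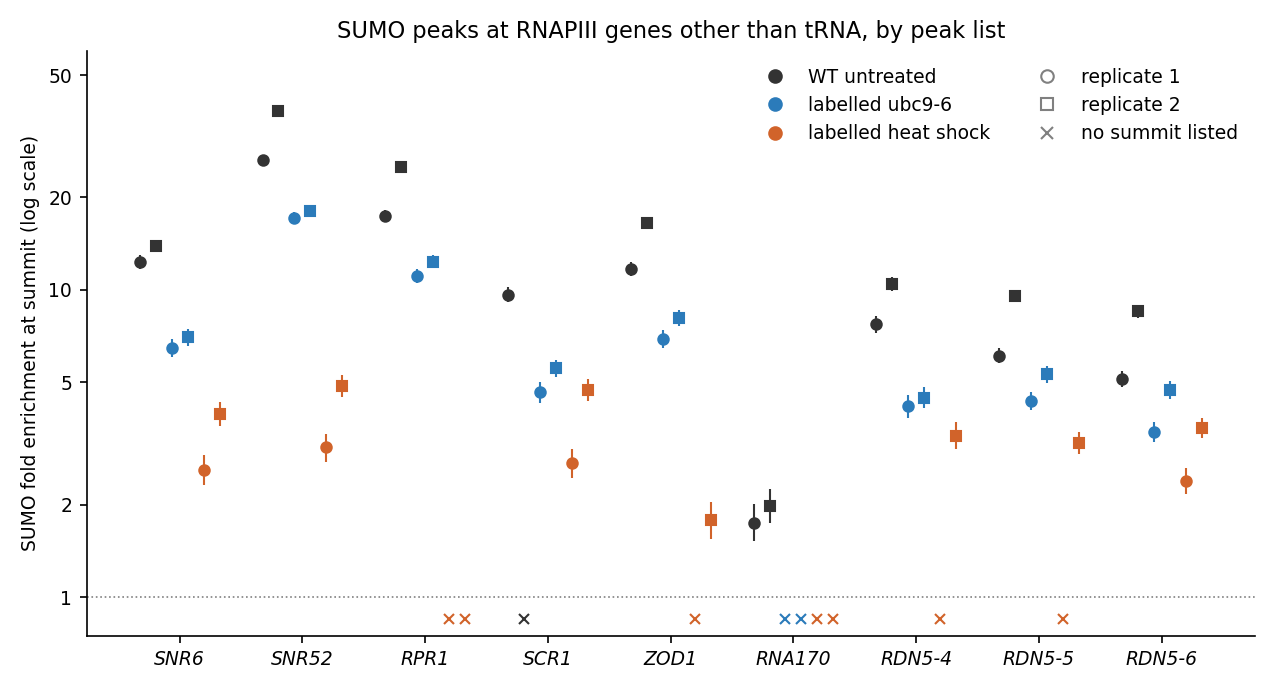
Fold enrichment at the summit (log axis) of the 9 genes in the 6 peak lists, 1 point per list, with bars for the exact Poisson 95% interval of the fragment count; crosses below 1 mark lists with no summit within 250 bp. SNR52 stands highest in WT untreated and in the ubc9-6-labelled lists but at 3.07 and 4.86 in the heat-shock-labelled lists, where RPR1 has no peak.

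SNR52 (chrV:431129-431220) carried the strongest peak of the set. Its fold was 26.5 and 38.2 in the WT untreated replicates, from 3116 and 4917 fragments at the summit over a background of 117 and 128. It ranked 7 of 714 and 14 of 842 peaks by q-value, above 98.9% and 99.3% of tRNA gene peaks. For the ubc9-6-labelled lists the fold was 17.2 and 18.0, above 100% and 99.6% of tRNA gene peaks. In the heat-shock-labelled lists it was 3.07 and 4.86, above 18.6% and 25.3% of them, and the rank was 202 of 302 and 195 of 319. No list of either labelled group reached the lower WT untreated value.

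RPR1 (chrV:117667-118035) followed. Its WT untreated fold was 17.4 and 25.0, above 98.1% and 97.8% of tRNA gene peaks. The ubc9-6-labelled lists gave 11.1 and 12.4, above 98.1% and 98.5%. Neither heat-shock-labelled list held a peak there, although peaks as low as 1.22-fold and 1.23-fold were listed elsewhere in the nuclear genome outside chromosome XII. By contrast, the 5 tRNA genes whose WT untreated mean was at least that of RPR1 all had a peak in both heat-shock-labelled lists, with group means of 9.69 or more.

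SNR6 (chrXII:366235-366346) and ZOD1 (chrXIII:91970-92027) were of middle strength. The WT untreated fold of SNR6 was 12.3 and 13.9, that of the ubc9-6-labelled lists was 6.48 and 7.0, and that of the heat-shock-labelled lists was 2.60 and 3.95. Its standing among tRNA gene peaks was 90.0% and 78.1%, then 84.5% and 69.9%, and last 10.3% and 15.8%. ZOD1, which keeps no intact tRNA gene, had a WT untreated fold of 11.7 and 16.5. It had 6.92 and 8.09 in the ubc9-6-labelled lists, and stood above 85.7% to 87.9% of tRNA gene peaks in those 4 lists. In the heat-shock-labelled lists it had no peak in replicate 1 and a fold of 1.79 in replicate 2, above 0.755% of tRNA gene peaks. The nearest tRNA gene was 8009 bp from SNR6 and 39798 bp from ZOD1.

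SCR1 (chrV:441987-442508) is the one gene of the set with a tRNA gene close by, 694 bp past its end. In WT untreated replicate 1 its peak was 9.65-fold and 985 bp wide. In replicate 2 the same stretch was covered by 1 merged peak of 2016 bp whose summit lay at the tRNA gene, so no SCR1 value was listed. The ubc9-6-labelled lists gave 4.64 and 5.55 for SCR1 and the heat-shock-labelled pair 2.73 and 4.73. The last 2 groups overlapped. At the tRNA gene next to it the fold was 13.7 and 17.9 in WT untreated, 7.46 and 8.13 in the ubc9-6-labelled lists, and 12.9 and 21.0 in the heat-shock-labelled pair. At the neighbour the heat-shock-labelled lists lay on both sides of the WT untreated pair, while both SCR1 values were below the single WT untreated value.

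RNA170 (chrXIII:667288-667456) had the weakest peak, 1.75-fold and 1.98-fold in WT untreated at rank 620 of 714 and 635 of 842. No nuclear tRNA gene with a peak was lower in either list. None of the 4 other lists held a peak there, and ERG2, which encodes an enzyme of ergosterol synthesis, also lay within 250 bp of the summits. Its ETC5 element is 1 of 8 annotated ETC sites, places bound by TFIIIC with little or no RNAPIII, which were added to the comparison after their values had been seen. Of the other sites, ETC2 alone had a summit within 250 bp, at 1.56-fold in WT untreated replicate 2.

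The 5S copies RDN5-4 (chrXII:482045-482163), RDN5-5 (chrXII:485697-485815) and RDN5-6 (chrXII:489349-489469) lie beyond the rDNA array in near-identical repeats. RDN5-4 and RDN5-5 were identical over 119 bp and differed from RDN5-1 at 3 of 121 aligned positions, all at the 3′ end, while RDN5-6 was identical to RDN5-1. None of the 100-base windows that cover their WT untreated summits occurred once in the genome (4 to 6 copies each), against all such windows at the other 6 genes. How reads with several equal positions were placed is not given in the sources used here, so the copies cannot be told apart as sources of signal. The fold in WT untreated was 7.73 and 10.5 at RDN5-4, 6.10 and 9.53 at RDN5-5, and 5.14 and 8.53 at RDN5-6. The local background was 1.52 to 1.75 times the genome background at RDN5-5 and RDN5-6 in those lists and equal to it at RDN5-4, so that the fold of the first pair was divided by more. At RDN5-5 the summits held 1253 and 1872 fragments, against 909 and 1308 at RDN5-4. The ubc9-6-labelled lists gave 4.18 and 4.46 at RDN5-4, 4.34 and 5.32 at RDN5-5, and 3.45 and 4.72 at RDN5-6. Of the heat-shock-labelled lists, replicate 1 had a peak at RDN5-6 alone, of 2.39, and replicate 2 had 3.36, 3.18 and 3.56 in the same order.

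The copies inside and next to the array could not be read in the same way. RDN5-1 and RDN5-2 were covered in the WT untreated lists and in those labelled ubc9-6 by 1 peak of 17443 to 17479 bp. RDN5-3 had a peak only in WT untreated replicate 2, of 2.37-fold.

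**Figure D2:**
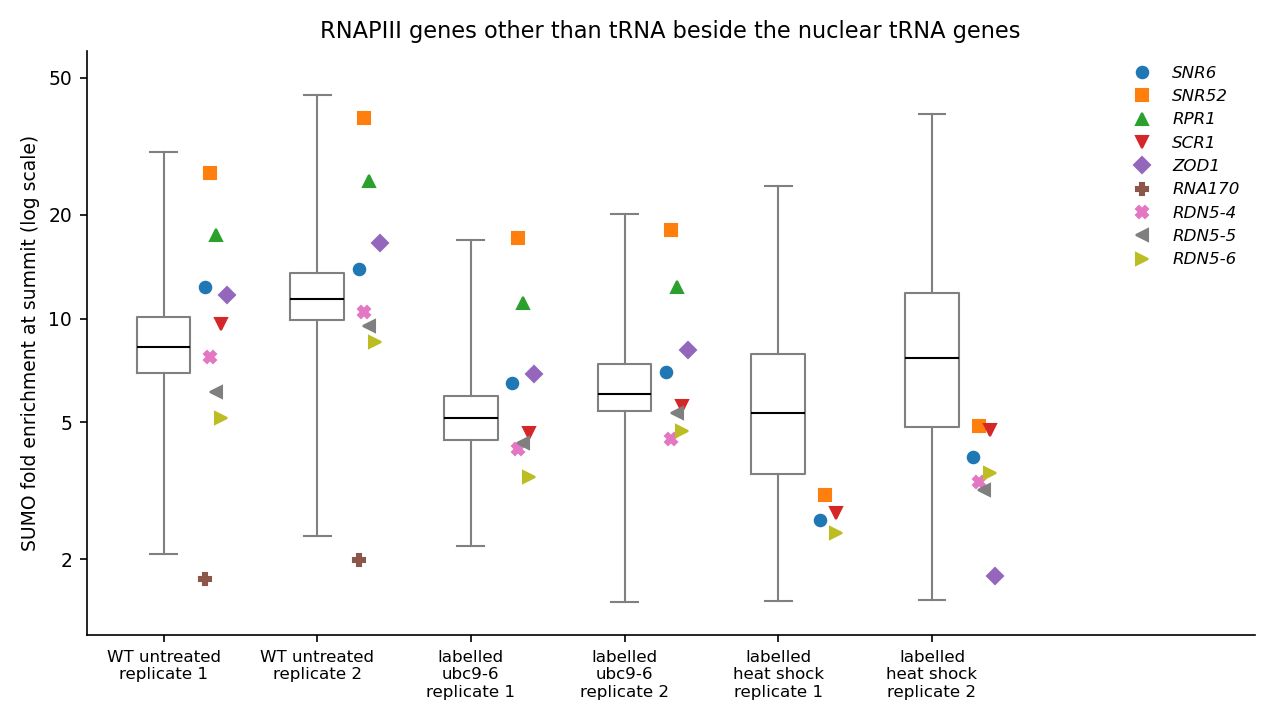
Fold enrichment (log axis) of the 9 genes (symbols) beside the nuclear tRNA genes with a peak (box, quartiles; line, median; whiskers, lowest to highest) in each list. SNR52, RPR1, ZOD1 and SNR6 lie above the tRNA median in the first 4 lists, and every listed gene lies below it in both heat-shock-labelled lists.

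In the ubc9-6-labelled lists, 8 of the 9 genes again had a peak in both replicates, against 8.99% of all nuclear genes, and RNA170 was the one without. In 7 genes with a value in all 4 lists, both ubc9-6-labelled lists were below both WT untreated lists, as were 82.9% of the 544 regions with a peak in all 4 lists. WT untreated means exceeded the labelled means by 1.62-fold at RDN5-5 to 2.1-fold at RDN5-4. In a limma fit over the 544 regions, 5 of the 7 were lower (SNR6, SNR52, RPR1, ZOD1 and RDN5-4) and 2 did not pass (RDN5-5 and RDN5-6), against 46.1% of all regions lower. The log2 difference was -0.85 ± 0.35 (SE, n = 2 and 2, limma adjusted p = 0.0441) at SNR52 and -1.06 ± 0.35 (adjusted p = 0.0348) at RDN5-4. The SE was 0.347 at each of the 7 genes. It comes from a variance shared over regions and is not the spread of each gene's own replicates. The exact permutation test of single genes cannot go below 0.333 with 2 against 2, and gave 0.333 at each of the 7 (two-sided).

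These falls were not told apart from those of the peaks in general. The median region fell by 0.77 on the log2 scale, and the median tRNA region fell by 0.81. After each list was centered on its tRNA regions, the 7 genes differed from WT untreated by -0.25 to 0.14, and none passed, with 0% of the 544 regions lower and 13 higher (limma, 88 regions at an unadjusted p under 0.05 in either direction). The 95% interval of the centered difference was -0.33 to 0.23 at SNR52, -0.28 to 0.21 at RPR1 and -0.52 to 0.20 at SNR6. The calls before centering also rested on the background and on single lists. With fragments at the summit over the genome background in place of the local one, none of the 7 passed (adjusted p of 0.0533 to 0.0585) and 5 regions (0.919%) were called, against 46.1% with the local background. Without WT untreated replicate 2, only SNR6 and RDN5-4 passed and 78 regions were called. Without replicate 1 labelled ubc9-6 the adjusted p of the 7 genes was at least 0.47 and 0 regions passed, and without replicate 2 it was at least 0.164 and again 0 passed. Without WT untreated replicate 1 all 7 passed, with 491 regions called.

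In the heat-shock-labelled lists, 4 of the 9 genes (SNR6, SNR52, SCR1 and RDN5-6) had a peak in both replicates, against 5.26% of all nuclear genes. Replicate 2 had 3 more, at ZOD1, RDN5-4 and RDN5-5. Of the 8 genes with a peak in both WT untreated lists, 3 kept one in both heat-shock-labelled lists. Over all nuclear genes, 320 of 649 (49.3%) kept one, a share made up largely of tRNA genes, which kept 250 of 268. Merged regions at neither a tRNA gene nor one of the 9 genes kept 12 of 387 (3.10%). The other snRNA and snoRNA genes kept 2 of 45. Both of the 2 kept lie within 500 bp of a tRNA gene, and of the 76 snRNA and snoRNA genes without one that close, 0 had a peak in either heat-shock-labelled list. The difference between these classes was not tested.

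Only SNR6, SNR52 and RDN5-6 had their own value in all 4 lists of this comparison. In each, both heat-shock-labelled lists were below both WT untreated lists, as were 60.3% of the 262 regions fitted, of which 247 were at tRNA genes. All 3 were lower in the limma fit, against 40.8% of all regions. The log2 difference was -3.04 ± 0.38 (SE, n = 2 and 2, adjusted p = 2.51e-13) at SNR52, or 8.15-fold between group means of 32.3 ± 8.28 and 3.97 ± 1.27 (SD). At SNR6 it was -2.03 ± 0.38 (adjusted p = 2.57e-06), and at RDN5-6 it was -1.18 ± 0.38 (adjusted p = 0.00699). The SE was 0.378 at all 3 genes, again from a variance shared over the 262 regions. These p-values therefore do not measure the spread between the 2 replicates of a single gene. The median tRNA region differed by -0.70, with quartiles of -1.18 and -0.21.

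The falls at SNR52 and SNR6 remained after each list was centered on its tRNA regions. The centered log2 difference was -2.41 ± 0.07 (limma adjusted p = 4.54e-07) at SNR52, -1.40 ± 0.10 (adjusted p = 1.27e-05) at SNR6 and -0.56 ± 0.10 (adjusted p = 0.00111) at RDN5-6, with 42.4% of all regions lower on this scale (111 lower and 89 higher, against 107 and 1 before centering). None of the 247 tRNA regions fell as far as SNR52, 5 fell further than SNR6, and 60 fell further than RDN5-6. Counted from the largest fall among all 262 regions, SNR52 was number 6, SNR6 number 12 and RDN5-6 number 69. The regions that fell further than SNR52 were therefore not at tRNA genes, although only 15 of the 262 regions were of that kind. In the fit before centering, SNR52 and SNR6 passed with each of the 4 lists left out in turn. RDN5-6 did not pass without WT untreated replicate 2 (adjusted p = 0.294, 27 regions called) or without replicate 1 labelled heat shock (adjusted p = 0.159). Genes that lost their peak, such as RPR1, gave no value to test, so the fit covers the genes that kept one.

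**Figure D3:**
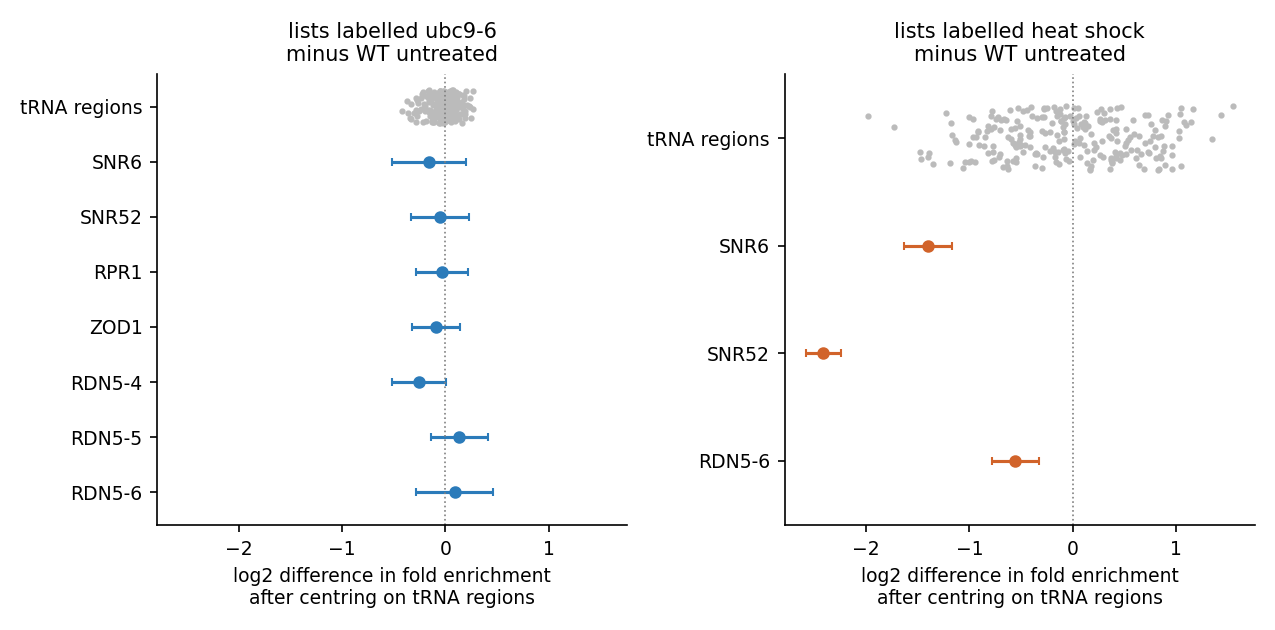
Log2 difference in fold enrichment from WT untreated after each list was centered on its tRNA regions, for the genes with a peak in all 4 lists (points, with limma 95% intervals) and for tRNA regions (grey dots). The 7 genes on the left lie between -0.25 and 0.14, and on the right SNR52 lies at -2.41, below every tRNA region.

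The summits kept their place within each gene from list to list. At RPR1 they lay 86 or 87 bp upstream of the annotated 5′ end in all 4 lists with a peak. At SNR52 they lay at positions -167 to -135, at -138 and -136 in WT untreated, -135 and -159 in the ubc9-6-labelled lists, and -167 and -165 in the heat-shock-labelled lists. How far the leaders of both genes reach was not measured here. SNR6 summits lay from -3 to 24, downstream of the TATAAA element that begins at -30. SCR1 summits lay from -29 to -2, and its TATAAA element begins at -31. The SCR1 summit at -29, from replicate 1 labelled heat shock, fell inside that element, and the others lay downstream of it. ZOD1 summits lay from -13 to 14. RDN5-5 and RDN5-6 summits lay from -8 to -2, whereas those of RDN5-4 lay from 7 to 39, inside the gene. RNA170 summits were at 19 and 64. In 8 of the 9 genes, the summits of all lists fell within 32 bp of each other, and RNA170, with 2 values, spanned 45 bp.

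**Figure D4:**
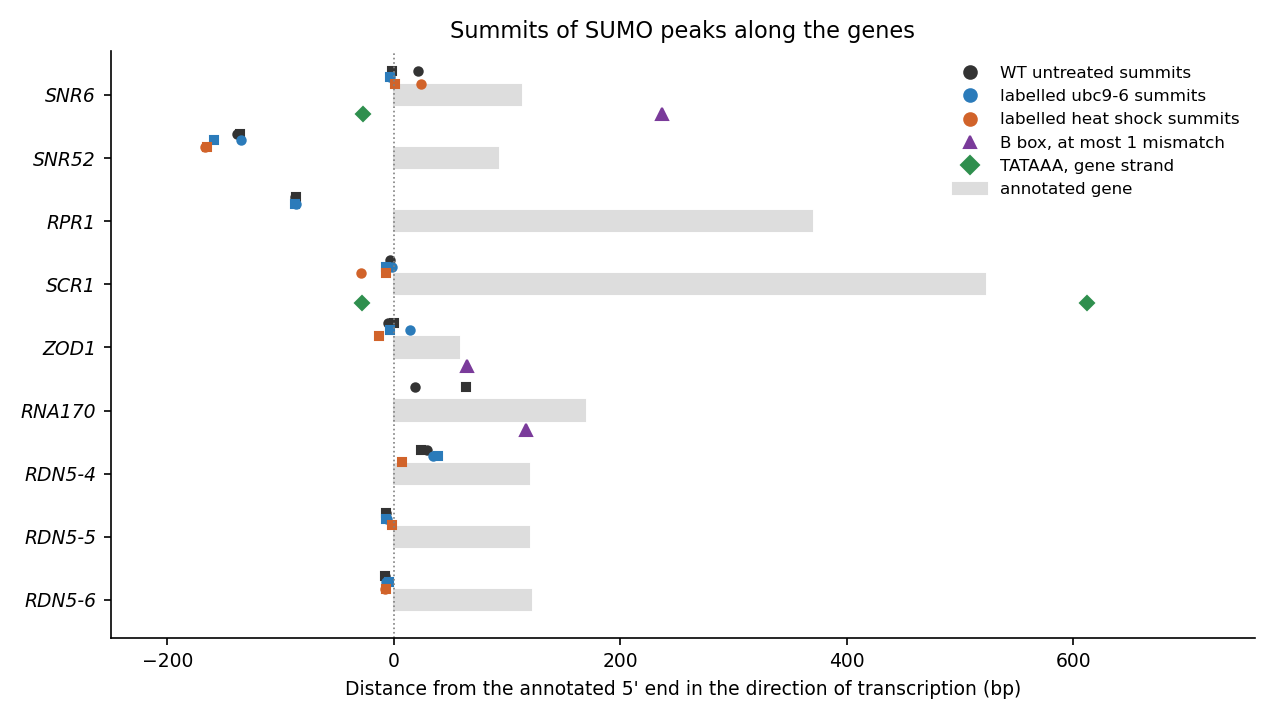
Place of each summit along the 9 genes in bp from the annotated 5′ end, in the direction of transcription (grey bars, annotated genes; circles, replicate 1; squares, replicate 2; triangles, B box with at most 1 mismatch; diamonds, TATAAA). SNR52 and RPR1 summits lie upstream of the annotated gene at -167 to -135 and -87 to -86, and the others lie from -29 to 64. Diamonds are drawn for TATAAA on the gene strand only, so the SNR52 match, on the opposite strand, has none.

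Few of the summits had a B box beside them. A B box match of at most 1 mismatch on either strand lay within 100 bp of the best-ranked WT untreated summit at ZOD1 and RNA170, or 2 of the 9 genes. The same window held one at 189 of 271 tRNA gene summits (69.7%), at 2 of 440 other summits of WT untreated replicate 1 (0.455%), and in 1.05% of windows of that length tiled over the nuclear genome. The ZOD1 match began 60 bp from the annotated 5′ end, 3 bp past the annotated 3′ end, and the RNA170 match 112 bp into the gene. At SNR6 the match, on the opposite strand, began 232 bp from the 5′ end, 216 bp from the summit and outside the window. On the gene strand the match there, at 233, had 2 mismatches. With 2 mismatches allowed, RPR1 joined them, while 11.5% of tiled windows then held a match. The core GTTCGA of SNR52 lay 106 bp from the summit. No match means only that these letters are not in the window.

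TATAAA on either strand was found within 100 bp of the summit at SNR6, SNR52 and SCR1, beside 24.4% of tRNA gene summits, 46.4% of other WT untreated replicate 1 summits and 20.7% of tiled windows. An A box match of at most 1 mismatch on the gene strand was found at the 3 RDN5 copies, where it began at 49 and again at 77, beside 59.8% of tRNA gene summits and 3.58% of tiled windows. A run of TTTTT, the letters at which RNAPIII stops, began within 10 bp of the annotated 3′ end at 7 of the genes, 29 bp past it at RPR1 and 69 bp past it at RNA170. Anywhere in a window of 201 bp that run is common, in 43.5% of tiled windows on one strand. The share for a stretch as short as 10 bp was not taken.

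Peak width differed among the genes. SNR52 peaks were 766 and 877 bp wide in WT untreated, 798 and 864 bp in the ubc9-6-labelled lists, and 478 and 551 bp in the heat-shock-labelled pair. RPR1 peaks, at 951 to 1120 bp, were wider than the median tRNA gene peak of 579 and 618 bp in WT untreated. RDN5-4 peaks were 1321 to 1496 bp wide in the first 4 lists and 223 bp in replicate 2 labelled heat shock, and part of the wide interval is sequence that occurs in up to 74 copies.

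The genes for the RNAPIII machinery were a separate list from its targets. Of 28 genes for subunits of RNAPIII, TFIIIA, TFIIIB, TFIIIC and the repressor Maf1, 2 had a summit near the start codon in each WT untreated list and in each ubc9-6-labelled list, namely RPC17, a polymerase subunit, and TFC3, the B box-binding subunit of TFIIIC. The RPC17 summit was within 250 bp of a tRNA gene. In the heat-shock-labelled lists RPC17 remained and TFC3 did not. Of 24 genes for proteins that bind the RNAs studied here (RNase P, the signal recognition particle, the Lsm ring with Prp24, and Lhp1), LSM2 had a summit in both WT untreated lists, with a fold of 1.53 and 1.95, and none did in the other 4 lists. The share of all genes with a summit near the start codon was not taken, so neither count is read as a trait of these lists of genes.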

How the data were processed

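SUMO ChIP-seq had been done in 3 groups with 2 replicates each, and 6 inputs were the controls. The authors sequenced paired ends and used Bowtie2 2.3.5 for alignment to sacCer3. They called peaks of each immunoprecipitate without pooling, in the narrow mode of MACS2 2.1.1.20160309, at a q-value limit of 0.05. Each deposited list gives start, end and summit, the fold enrichment (a ratio to the local background with a pseudocount of 1) and the p-value and q-value, deposited as −log10. The lists state no depth. Fragments and background at each summit were recovered from the deposited fold and p-value under the Poisson test, and 91.7% to 99.9% per list came out within 0.05 of a whole number. Intervals on them cover counting error only.

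Groups came from sample titles, and each list was given to the sample whose description names it, although letters in those names may stand for the other group. Fold changes and tests rest on those labels. Overlapping peaks of the 6 lists were merged into 963 regions. Regions with a peak in all 4 lists of a comparison were fitted on log2 fold with limma 3.58.1 (R 4.3.3), two-sided, with Benjamini-Hochberg adjustment over all regions and a threshold of 0.05. A gene was tested only where its own summit gave the value in every list, which left SCR1 out. Motifs and sequences came from RefSeq R64, whose 17 sequences contain all peaks. Scripts used Python 3.11.15 and were tested on simulated data. All 9 genes are named, and other genes only near their summits or on the fixed lists. The genes and lists were chosen with earlier results of these data known. Alternatives covered the summit window, peak filters, centering, a pseudocount, the background, region merging, the replicate block and each replicate left out.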

Additional observations from a re-analysis of the deposited data

How the results depend on the processing

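The count of genes with a peak in both replicates stayed within 1.5 times of the value given in 24 of 27 alternatives. It was 5 in WT untreated with only the best peaks of each list, as many as the shortest list holds, and 7 in the lists labelled heat shock with a peak in either replicate. Leaving out each replicate gave 8 to 9 for WT untreated, 8 for the lists labelled ubc9-6 and 4 to 7 for those labelled heat shock. Regions called for the lists labelled ubc9-6 numbered 483 with the replicate block, 13 and 0 with centering on tRNA regions and on all regions, 67 with the replicate block and centering on tRNA regions together, 5 with fragments over the genome background, and 0 to 491 with each replicate left out. For the lists labelled heat shock they numbered 221 with the replicate block, 200 and 204 with either centering, 195 with both together, and 27 to 139 with each replicate left out. Replicate numbers paired the samples by label only. Deviations of lists with the same number correlated at 0.47 and 0.07 over regions. All genes tested passed in limma with the block and no centering (adjusted p = 0.000473 at RDN5-5 and 0.000199 at RDN5-6 in the lists labelled ubc9-6). The genes of a fit shared 1 SE there too, 0.185 for the lists labelled ubc9-6 and 0.107 for those labelled heat shock. With the block and centering on tRNA regions together, 0 of the 7 genes passed in the lists labelled ubc9-6 (limma adjusted p of 0.217 or more). All 3 genes tested passed in those labelled heat shock. Centering turned the small difference of 2 genes in the lists labelled ubc9-6 to 0.14 (tRNA regions, with or without the block) and 0.11 (all regions) at RDN5-5, and to 0.089 (tRNA regions, with or without the block) and 0.062 (all regions) at RDN5-6. With fragments over the genome background none of the 7 genes passed (adjusted p of 0.0533 to 0.0585). The B box count was 0 with no mismatch, 0 within 50 bp, 1 to 2 with each replicate left out, and 2 for the core GTTCGA, an alternative chosen after seeing the data. With a replicate left out, the lone list of a group was assumed to vary like the other pair. The cause of these changes was not tested. A gene with no peak has no value, so its fall has no size, and 2 lists per group limit every test.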
